A study of Mus musculus with 12 samples.

Results

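The proteins of the mitochondrial ribosome are encoded in the nucleus by the Mrpl and Mrps genes, and their messenger RNAs were followed here from whole lysate to ribosome pull-down in cultured sensory neurons. The members were taken as every listed gene whose symbol starts with Mrpl or Mrps and a digit. There were 76 of 14177 genes in the table of the libraries labelled Cre- and 48 of 9112 in the table of those labelled Cre+, and the 48 are part of the 76. RefSeq has 78 protein-coding genes of such names, and of the others Mrpl58 is listed under its older symbol Ict1, outside the rule, while Mrpl23 was not analysed here.

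The data are RNA-seq of RiboTag cultures, in which the cytosolic ribosomal protein Rpl22 carries a haemagglutinin (HA) tag once Cre has acted, so that an HA antibody pulls down tagged ribosomes with the messages on them. Both genotypes, Rpl22HA/HA Runx3-Cre+ and Rpl22HA/HA Runx3-Cre-, were homozygous for the RiboTag allele, and in the Cre+ animals the recombinase was under Runx3, a transcription factor of proprioceptive neurons. Dorsal root ganglion (DRG) neurons of adult males, labelled 3 to 6 months old, were purified on a Percoll cushion and grown for 24 h, with 5 mice pooled for each sample. Of each genotype there were 3 pull-downs and 3 inputs, the input being 10% of the lysate before pull-down, 12 libraries in all. A test across them measures the spread between libraries, in which pools of mice and the pull-down itself cannot be told apart. Inputs and pull-downs were tested unpaired, although an input and a pull-down can come from the same lysate.

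A mitochondrial ribosome translates the few messages encoded in mitochondrial DNA, which are for subunits of the respiratory chain and of the ATP synthase. Its proteins are made on cytosolic ribosomes, the ones that the HA tag marks, and are then imported and assembled with the mitochondrial ribosomal RNAs into a small subunit, which decodes the message, and a large subunit, which joins the amino acids. Many of its proteins descend from bacterial ribosomal proteins, and others were added in mitochondria. By the lists used here, 26 members code for small subunit proteins and 49 for large subunit proteins, the latter with Mrps18a and Mrps30, which despite their names sit in the large subunit. Mrps36, the remaining member, codes for a component of the 2-oxoglutarate dehydrogenase complex. Proteins with a bacterial counterpart are coded by 46 of the members.

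The promoters of 67 members matched an entry of the RefSeq table (GRCm38.p6, 250 bases before to 50 after the start given there). Not matched were Mrpl4, Mrpl13, Mrpl15, Mrpl19, Mrpl38, Mrpl54, Mrps28, Mrps34 and Mrps35. Where a gene had several entries, it counted as holding a motif if any entry did, and the most upstream entry is printed below. The letters CCGGAAG, a form of the site that ETS family factors bind, stood on either strand in 25 of the 67 (37.3%). Of all 27025 genes with an entry, 9.93% held them. The letters GCGCA, then any base, then GCGC, are a form of the site of NRF1. NRF1 is a transcription factor known for nuclear genes of mitochondrial proteins. These letters stood in 13 of the 67 (19.4%), against 5.19% of all genes with an entry. Of 3 further motifs counted, GGGCGG, a form of the site of Sp1, was held by 49.3% of the 67 and 38.2% of all genes. CCAAT was held by 40.3% and 41.1%, and TATAAA by 7.46% and 15.7%. Neither of the first pair of motifs overlaps the other, and a match of letters is a description and not a measured site. The 100 bases before the start are shown for the 7 members called in either genotype below, with any match to either motif in capitals: Mrpl27 (chr11:94653691-94653790, plus strand), Mrps24 (chr11:5707702-5707801, minus strand), Mrps18c (chr5:100798659-100798758, plus strand), Mrpl36 (chr13:73330909-73331008, plus strand), Mrpl30 (chr1:37890377-37890476, plus strand), Mrpl57 (chr14:57826139-57826238, plus strand) and Mrps25 (chr6:92184024-92184123, minus strand).
Mrpl27: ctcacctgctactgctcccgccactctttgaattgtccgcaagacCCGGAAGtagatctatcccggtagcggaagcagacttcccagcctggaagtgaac
Mrps24: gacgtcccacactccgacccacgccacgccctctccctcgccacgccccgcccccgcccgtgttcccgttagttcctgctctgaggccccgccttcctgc
Mrps18c: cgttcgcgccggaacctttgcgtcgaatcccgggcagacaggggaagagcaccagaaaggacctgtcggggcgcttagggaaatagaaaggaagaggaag
Mrpl36: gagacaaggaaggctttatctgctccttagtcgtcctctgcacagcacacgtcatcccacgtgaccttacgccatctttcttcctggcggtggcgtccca
Mrpl30: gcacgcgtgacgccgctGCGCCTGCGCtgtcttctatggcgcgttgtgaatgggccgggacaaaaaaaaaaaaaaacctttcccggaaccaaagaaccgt
Mrpl57: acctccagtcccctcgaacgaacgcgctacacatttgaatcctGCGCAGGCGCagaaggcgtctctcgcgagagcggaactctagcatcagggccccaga
Mrps25: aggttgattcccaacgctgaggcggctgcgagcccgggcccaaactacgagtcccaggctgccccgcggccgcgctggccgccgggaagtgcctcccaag
Mrpl27 held the ETS-type letters, Mrpl30 and Mrpl57 held the NRF1-type letters, on opposite strands, and the 100 bases of Mrps24, Mrps18c, Mrpl36 and Mrps25 held neither. In the whole window of 300 bases, of any entry of the gene, Mrps18c and Mrpl57 held the ETS-type letters too. The printed bases of Mrpl36 lie inside its listed gene span (chr13:73328503-73332178), and those of Mrpl27 and Mrpl57 reach past the listed gene start.

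The labels were checked first on Runx3, the gene that drives Cre. In the libraries labelled Cre+, Runx3 had 22.7, 2.07 and 11.1 normalised CPM (counts scaled to 1000000 per library with TMM factors) in the pull-downs and 4.27, 2.39 and 5.55 in the inputs, and the groups overlapped (log2 fold change 1.55 ± 0.87 (SE), adjusted p = 0.309). In the libraries labelled Cre-, it had 20.7, 35.9 and 51.2 in the pull-downs and 4.68, 1.89 and 2.87 in the inputs, with every pull-down above every input (3.52 ± 0.43, adjusted p = 0.000236, edgeR's quasi-likelihood test). Of 6 proprioceptor markers, 5 were tested in Cre+ with 1 called higher in pull-down, and 6 were tested and called higher in Cre-. Since this goes against the labels, every direction below refers to the libraries as labelled. The pull-down columns of the table labelled Cre+ also have names close to the titles of Cre- samples, and were placed by the samples that name this table. Whether labels were exchanged between the tables was not tested. An exchange would swap the genotype in each statement and turn the sign of each difference between genotypes. The paper's comparison with ganglion tissue went the way of the labels. It reports significant overlap of pull-down-enriched genes between Runx3-Cre tissue and Cre+ cultures, and a poorer match for Cre- cultures. The 7 pan-neuronal markers summed to between 21436 and 23814 CPM in Cre+ pull-downs and 20005 and 26594 in Cre+ inputs, and to between 47775 and 55385 and 23116 and 28003 in Cre-. These sums are mostly Nefl, Nefm and Snap25, and single markers differed: in Cre+ Tubb3 and Uchl1 were called lower (-1.19 and -1.85) and 0 higher, and in Cre- Rbfox3 was called lower (-0.76) and 4 markers higher. The 6 glial markers tested in both genotypes summed to between 1639 and 2265 CPM in Cre+ pull-downs and 2411 and 3701 in Cre+ inputs, and to between 1257 and 1657 and 2751 and 4263 in Cre-. They are mostly Pmp22 and S100b, neither called in Cre+ and called in opposite directions in Cre- (-1.71 and 0.69). Of the 8 glial markers tested in Cre-, 7 were below 0, with a median log2 fold change of -1.31. Apoe (-1.58) and Fabp7 (-3.09) were also called lower there, which makes 3 lower and 1 higher. In Cre+ 5 of 6 were below 0, with a median of -0.56 and 0 called. Macrophage markers (2 of 4, without Aif1 and Ptprc) ranged from 4.85 to 112 in Cre+ pull-downs and from 25.8 to 68.1 in Cre+ inputs. Endothelial ones (2 of 3, without Cldn5) ranged from 31.5 to 320 and from 20.2 to 43.0. The highest sums in Cre+ pull-downs were both in the first. There Pecam1 had 255 CPM, against 20.2 and 17.8 in the others, and Cd68 had 103, against 13.8 and 4.27. In Cre- the macrophage sums were 23.8 to 55.3 and 35.2 to 116, and the endothelial ones 9.19 to 64.3 and 23.6 to 32.9. The 3 fibroblast markers tested in both genotypes summed to 58 to 75 in Cre+ pull-downs and 40 to 79 in inputs, and to 17 to 67 and 57 to 68 in Cre-, where Col1a1 was called lower (-1.34). These markers' part in the results on the members was not tested, and in bulk RNA fewer cells of a type and less RNA per cell cannot be told apart. Totals ranged from 8886308 to 18633365 counts per library.

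Members were expressed at the level of a typical gene of these cultures. The authors' FPKM (fragments per kilobase and per 1000000 mapped), averaged over the 6 libraries of a table, had a median of 10.1 over the 76 members in Cre-, against 7.83 over all 11526 genes tested there, and of 12.3 over the 48 members in Cre+, against 11.9 over 8947 genes. By mean FPKM, which is a level per length, the highest members in Cre- were Mrpl30 at 52.9, Mrpl4, a protein near the peptidyl transferase centre, at 33.1 and Mrpl39 at 25.6. The lowest were Mrps18b at 2.69, Mrps36 at 3.07 and Mrps5 at 3.65. The FPKM columns carry no spread, so neighbours in this order cannot be separated. The 48 members of both tables had a median FPKM of 11.4 in Cre- and the 28 listed in Cre- alone one of 6.70, and the Cre+ table holds no gene with under 5 counts in any library. Input levels of the 48 members were alike in order between genotypes (Pearson r = 0.94 across genes, on mean log2 values), whereas their pull-down levels were less so (r = 0.58); genes are not independent replicates and these values are descriptions.

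As a group, the members took a smaller share of the pull-down than of the input, and the gap was wider in the libraries labelled Cre+. The 48 members of both tables made up 0.178%, 0.1004% and 0.105% of all counts in the Cre+ inputs, and 0.05004%, 0.0606% and 0.0670% in the Cre+ pull-downs. In Cre- they made up 0.107%, 0.0995% and 0.104% of the inputs, and 0.0799%, 0.0759% and 0.0816% of the pull-downs. In both genotypes every pull-down lay below every input, and the first Cre+ input stood well above the other two. Such shares carry no correction for composition, and with scaling by library size alone the median log2 fold change of all genes was also below 0, at -0.36 in Cre+ and -0.27 in Cre-, against -1.56 and -0.42 over the members tested.

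**Figure D1:**
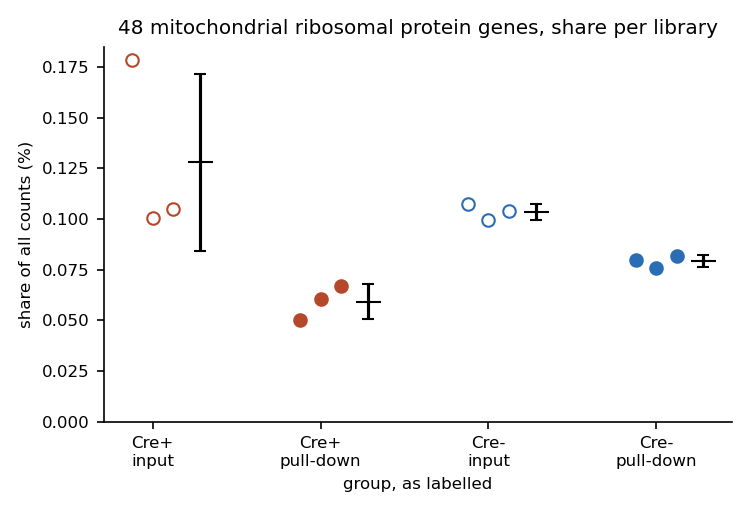
Share of all counts (%) taken by the 48 mitochondrial ribosomal protein genes of both tables in each library, by labelled group, with open circles for inputs, filled circles for pull-downs and the mean ± SD of 3 libraries beside them. The Cre+ pull-downs lie at 0.05004% to 0.0670% and the Cre- pull-downs at 0.0759% to 0.0816%, each below the inputs of their genotype.

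The first comparison asked which of these messages were richer or poorer on the pulled-down ribosomes than in the lysate of the libraries labelled Cre+. Of the 48 members tested, 43 had a log2 fold change below 0, against 47% of all 8947 genes tested, and the median was -1.18, against 0.08 over all genes. However, 1 member was called lower at FDR below 0.1, where 2.32% of all genes were, and 0 were called higher, where 4.9% were; at an unadjusted p below 0.05 there were 10 lower and 1 higher (854 and 1255 of all 8947 genes), and DESeq2 called 6 lower and 1 higher (614 and 1194 of all genes). The fit of all 12 libraries, which share 1 estimate of the spread, called 15 lower and 1 higher (1169 and 1580 of all genes). Every pull-down lay below every input for 18 of the 48 (37.5%), against 17.9% of all genes, and above every input for 1 (2.08%), against 15.5%. The median stayed below 0 in each alternative, between -0.80 without the first Cre+ input and -1.56 with scaling by library size alone.

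Mrpl27, whose bacterial counterpart reaches towards the peptidyl transferase centre, was the member that fell. Its normalised CPM were 47.9, 18.4 and 16.2 in the Cre+ inputs and 2.77, 5.61 and 6.46 in the pull-downs. No pull-down reached the lowest input, and the first input was the highest. The log2 fold change was -2.47 ± 0.73 (SE), which also passes the 2-fold limit (2.19% of all genes are lower by that rule), with an adjusted p of 0.0993 just under the threshold. Without the first Cre+ input the log2 fold change was -1.81 and the adjusted p 0.377, and the call was also lost without the second or the third input and without the second or the third pull-down. The gene lies at chr11:94653770-94661932 (GRCm38), and 7.61% of its exon bases are shared with Eme1, and no source says that reads were counted by strand.

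No other member passed the test in Cre+, though several were low in each pull-down. Mrpl11, a protein at the base of the stalk that recruits translation factors, had 15.4, 6.58 and 11.8 normalised CPM in the inputs and 3.00, 2.07 and 3.69 in the pull-downs (log2 fold change -1.95 ± 0.67, adjusted p = 0.128). Mrps22, a small subunit protein without a bacterial counterpart, had 33.8, 16.8 and 26.4 in the inputs and 6.77, 6.09 and 9.69 in the pull-downs (-1.77 ± 0.62, adjusted p = 0.133). Both sets of pull-downs lay below their inputs without overlap. Mrps5, a core protein of the decoding subunit, had 4.01, 7.29 and 4.56 in the inputs and 1.11, 1.34 and 1.73 in the pull-downs (-1.92 ± 0.62, adjusted p = 0.116), which was again without overlap.

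The 3 members with the largest positive log2 fold changes in Cre+ were Mrpl52 at 1.02, Mrps25 at 0.93 and Mrps28 at 0.70, and none passed the test. Mrpl52, a large subunit protein added in mitochondria, had 3.33, 4.63 and 87.9 normalised CPM in the pull-downs and 29.1, 9.93 and 8.45 in the inputs, so its sign rests on the third pull-down and turned to -1.96 without it. Mrps28 had 14.1, 4.51 and 7.73 in the pull-downs and 10.8, 3.29 and 2.10 in the inputs, which overlapped. Mrps25 is described with Cre- below, since it was called there.

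The pull-downs labelled Cre+ disagreed with each other over the members. For 25 of the 48 (52.1%) the highest of the 3 pull-downs was over 5 times the lowest, against 29.8% of all genes, whereas in the Cre- pull-downs this held for 0 of 76, against 4.93% of all genes. Mrpl35, a large subunit protein with a bacterial counterpart, had 1.44, 36.1 and 27.8 normalised CPM in the Cre+ pull-downs, against 55.7, 40.5 and 44.3 in the inputs. Its first pull-down alone was far below the rest. Mrpl39, a large subunit protein without a bacterial counterpart, had 1.11, 34.5 and 14.2 in the pull-downs and 75.4, 29.2 and 39.2 in the inputs. The first pull-down was the lowest of the 3 for 25 members, the second for 10 and the third for 13, so none was lowest for every member. The members' median log2 ratio to the mean input was -1.68 in the first, -1.10 in the second and -1.07 in the third (-0.05, -0.06 and -0.06 over all genes). Without the first pull-down the median log2 fold change was -0.97. That fit called 4 members lower and 1 higher (607 and 948 of all genes). On log2 values the pull-downs correlated across the 48 members with r = 0.156 to 0.330, against 0.685 to 0.831 across all genes, and in Cre- the corresponding values were 0.884 to 0.898 over 76 members and 0.929 to 0.962. The median count of a member was 65.5 in a Cre+ pull-down and 258.5 in a Cre+ input, with a lowest of 5 counts, and whether this depth bears on the spread was not tested.

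**Figure D2:**
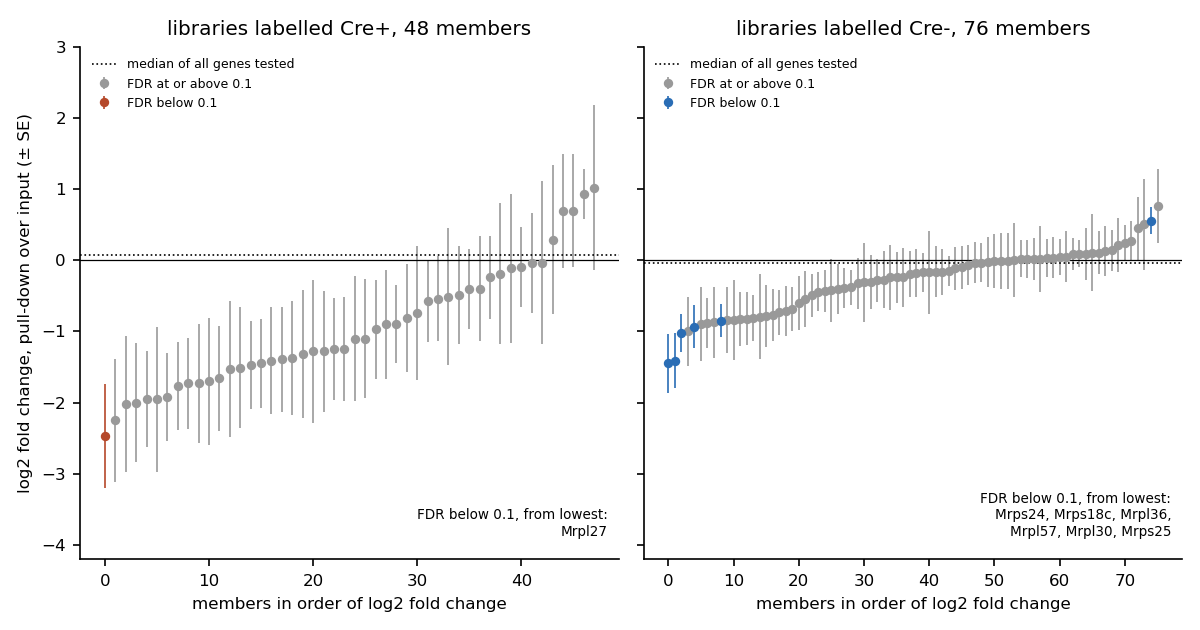
Log2 fold change of pull-down over input with its SE for each member, ordered by value, in the libraries labelled Cre+ (left, 48 members) and Cre- (right, 76 members); coloured points passed FDR below 0.1 and the dotted line is the median of all genes tested. In Cre+ 43 of 48 points lie below 0 with wide errors and 1 is called, and in Cre- the points lie near 0 with narrow errors and 6 are called.

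In the libraries labelled Cre-, the same comparison gave smaller differences with less spread. If the labels hold, these cultures lack Cre and so the tag, and their pull-downs serve as a background. Calls here are then differences of that background from input, and not of tagged ribosomes. Of the 76 members 53 had a log2 fold change below 0, against 52.5% of all 11526 genes, and the median was -0.19, against -0.04. Called lower were 5 members, where 11.1% of all genes were, and called higher was 1, where 13% were. By the 2-fold limit 3 of the 5 remained, where 5.83% of all genes were lower. The fit of all 12 libraries called 0 of 48 (224 lower and 358 higher of all genes), and scaling by library size alone 15 lower and 0 higher (2378 and 929). Every pull-down lay below every input for 21 of 76 (27.6%), against 18.6% of all genes, and above for 2 (2.63%), against 18.2%. With the 48 members of both tables alone, the median in Cre- was -0.13.

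The 5 members that fell in Cre- code for proteins from both subunits. Mrps24, the counterpart of a bacterial protein at the entry of the messenger channel, had 14.2, 8.47 and 9.06 normalised CPM in the inputs and 2.83, 5.06 and 3.71 in the pull-downs (log2 fold change -1.45 ± 0.42, adjusted p = 0.0322). Mrps18c, 1 of 3 paralogs of a bacterial small subunit protein, had 21.95, 12.4 and 15.4 in the inputs and 3.67, 6.34 and 8.75 in the pull-downs (-1.41 ± 0.39, adjusted p = 0.0273). In both genes each pull-down was below each input. Exon bases are shared with Urgcp for 15.4% of Mrps24 and with Gm43511 for 23.2% of Mrps18c.

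Mrpl36, a small protein of the large subunit with a bacterial counterpart, had 31.5, 24.98 and 23.2 normalised CPM in the inputs and 12.8, 11.3 and 15.1 in the pull-downs (-1.02 ± 0.27, adjusted p = 0.0219). Mrpl57, a large subunit protein added in mitochondria, had 27.7, 19.2 and 26.0 in the inputs and 8.78, 15.04 and 14.5 in the pull-downs (-0.93 ± 0.30, adjusted p = 0.0535). Mrpl30, the member with the highest mean FPKM, had 59.0, 40.9 and 48.1 in the inputs and 24.8, 24.9 and 32.5 in the pull-downs (-0.85 ± 0.23, adjusted p = 0.0259). None of the 3 overlapped between pull-down and input. Mrpl30 and Mrpl57, whose promoters are printed above, share no exon bases with another gene, and Mrpl36 shares 2.58% with Ndufs6. In Cre+ the log2 fold changes of Mrps24, Mrpl36, Mrpl57 and Mrpl30 were -0.51, -0.49, -0.40 and -0.89, none of them called, and Mrps18c was not listed. Of the 5 genes, Mrpl36 kept its call with each Cre- library left out in turn. Without the first Cre- input Mrps24, Mrps18c and Mrpl57 lost theirs (adjusted p = 0.127, 0.111 and 0.146), while Mrps15 was called lower there. Mrpl57 was also lost without the third input or the first pull-down, and Mrpl30 without the second pull-down (adjusted p = 0.104). In the fit of all 12 libraries, which tests 4 of these genes, none was called, with adjusted p from 0.324 to 0.462.

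Mrps25 was the member that rose in Cre-, and the one member above its inputs in each library of both genotypes. It codes for a small subunit protein without a bacterial counterpart. It had 54.3, 56.1 and 60.1 normalised CPM in the Cre- inputs and 82.5, 99.1 and 69.9 in the pull-downs (log2 fold change 0.56 ± 0.19, adjusted p = 0.0612). The call was lost without any one of the 3 Cre- inputs, without the second Cre- pull-down (adjusted p = 0.237), in the fit of all 12 libraries (0.325) and with scaling by library size alone (0.25), with log2 fold changes from 0.32 to 0.60 in these 6 fits. In Cre+ it had 42.1, 63.7 and 58.9 in the inputs and 103, 99.3 and 112 in the pull-downs (0.93 ± 0.35, adjusted p = 0.159), and its pull-downs were alike where those of most members were not. The gene, at chr6:92169512-92184023, shares 69.8% of its exon bases with Nr2c2, a nuclear receptor gene on the opposite strand. Nr2c2 itself had 94.5, 112 and 118 in the Cre- inputs and 149, 177 and 142 in the Cre- pull-downs (0.53 ± 0.17, adjusted p = 0.0502, lost without the first or second input or the second pull-down), and log2 fold changes of 0.76 in Cre+ and 0.53 in Cre- stood beside those of Mrps25. Which of the genes the shared reads came from cannot be told apart without strand.

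**Figure D3:**
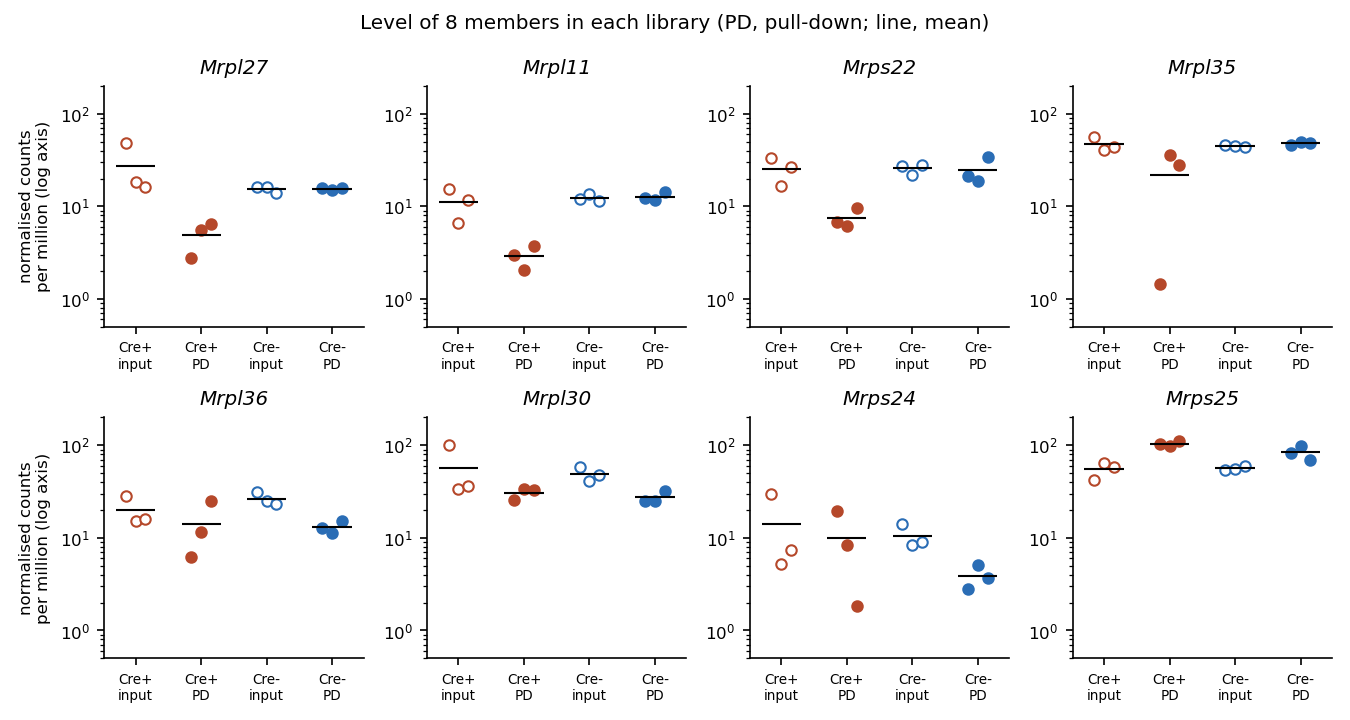
Normalised CPM (log axis) of 8 members in each of the 12 libraries, with open circles for inputs, filled circles for pull-downs (PD) and a line at the mean of 3. Mrpl27, Mrpl11 and Mrps22 lie below their inputs in the Cre+ pull-downs and not in the Cre- ones, Mrpl35 has 1 low Cre+ pull-down at 1.44, and Mrps25 lies above its inputs in both genotypes.

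By structural role, the median of each group was lower in Cre+ than in Cre-, and no test was made between groups. The counts of calls below stand against 2.32% of all genes called lower and 4.9% higher in Cre+, and 11.1% lower and 13% higher in Cre-. Of the small subunit members, 18 were tested in Cre+ with 0 called and a median log2 fold change of -1.13, and 26 in Cre- with 1 higher, 2 lower and a median of -0.21. Of the large subunit members, 30 were tested in Cre+ with 1 lower and a median of -1.18, and 49 in Cre- with 3 lower and a median of -0.17. Members with a bacterial counterpart had medians of -1.21 in Cre+ (28 tested, 1 lower) and -0.26 in Cre- (46 tested, 4 lower), and those without, -1.11 (20 tested, 0 called) and -0.16 (29 tested, 1 higher and 1 lower).

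At the stalk that recruits elongation factors, Mrpl10 and Mrpl11 were at -1.45 and -1.95 in Cre+, both uncalled, and at 0.27 and 0.04 in Cre-. In Cre+ both had every pull-down below every input, as 17.9% of all genes had. Of the members near the peptidyl transferase centre, Mrpl27 was at -2.47 in Cre+ and 0.02 in Cre-, while Mrpl16 was at -0.19 and 0.14, Mrpl3 at -0.54 and 0.25, and Mrpl4 at -0.09 and 0.05. At the rim of the exit tunnel, Mrpl24 was at -1.73 in Cre+ and -0.02 in Cre-, and Mrpl17 at -0.57 and -0.03, with 4 further rim genes in the list, 3 of them tested in Cre- alone. In the central protuberance, which contacts the small subunit, Mrpl38 was at -1.25 in Cre+ and -0.03 in Cre-, and Mrpl48 at -2.00 and -0.40. In the core of the small subunit 5 of 7 genes were tested in Cre+, with a median of -1.41 and 0 called, and 7 of 7 in Cre-, with a median of 0.00 and 0 called. The 3 Mrps18 paralogs were at -0.69 (Mrps18a), -0.84 (Mrps18b) and -1.41 (Mrps18c) in Cre-, and the last was called. Each had every pull-down below every input, as 18.6% of all genes had in Cre-. In Cre+ Mrps18a was at -1.37, uncalled and with overlapping groups. Mrps36, the dehydrogenase component, was at -0.79 in Cre- with adjusted p = 0.409.

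The difference between genotypes was tested directly, as the log2 fold change in Cre+ minus that in Cre-, in a fit of all 12 libraries over 8830 genes. The difference was below 0 for 36 of 48 members, with a median of -0.74 against 0.13 over all genes, and 1 member passed FDR below 0.1 as lower, where 2.22% of all genes did, and 0 as higher, where 2.62% did; DESeq2 called 5 lower (462 of all genes). That member was Mrpl27, with a difference of -2.45 and an adjusted p of 0.0985. In Cre- it had 16.1, 16.2 and 13.96 normalised CPM in the inputs and 16, 15.04 and 15.8 in the pull-downs, so that its pull-downs in Cre- overlapped the inputs (log2 fold change 0.02 ± 0.27) while those in Cre+ did not. Mrps5 had a difference of -2.33 with adjusted p = 0.103, and Mrpl11 of -1.94 with adjusted p = 0.139. The call of Mrpl27 was lost without any one of the Cre+ inputs, Cre- inputs or Cre- pull-downs, with adjusted p up to 0.236, and kept without any one of the Cre+ pull-downs.

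Side by side, 27 of the 48 members had a log2 fold change below 0 in both genotypes, 16 below 0 in Cre+ alone, 4 above 0 in Cre+ alone and 1, Mrps25, above 0 in both. Across the 48 members the fold changes of the genotypes showed a Pearson r of -0.08, against 0.33 across all 8830 genes, as descriptions over genes that share 12 libraries. For Mrpl35 every Cre+ pull-down was below every input and every Cre- pull-down above (45.99, 49.9 and 48.1 against 45.95, 45.04 and 44.4), with a difference of -1.14 and adjusted p = 0.527.

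The fractions were also compared across genotypes. Among inputs, 0 of 48 members passed FDR below 0.1 by edgeR or by DESeq2, as 0% of all genes did, and 0 had an unadjusted p below 0.05, where 16 of all 8830 genes had. Member log2 fold changes of Cre+ over Cre- inputs were above 0 for 42 of 48, with a median of 0.34 against 0.01 over all genes. This rests on the first Cre+ input, where the members' summed normalised counts were 1550 CPM against 847 and 902 in the other two, and without it the median was -0.04. Among pull-downs, 6 members were called lower in Cre+, where 9.42% of all genes were, and 0 higher, where 13.3% were, with a median of -0.54 against 0.14 over all genes. The 6, singled out after their values were seen, were Mrpl11, Mrps5, Mrpl10, Mrps22, Mrpl27 and Mrpl24. Mrpl11, for example, had 3.00, 2.07 and 3.69 normalised CPM in Cre+ pull-downs and 12.4, 11.7 and 14.2 in Cre- ones, which did not overlap. Mrpl11 and Mrps5 kept this call with each library left out, whereas Mrpl10 lost it without the second Cre- pull-down, Mrps22 without the third, Mrpl27 without any one of the 3, and Mrpl24 without any one of them or the first Cre+ pull-down. These libraries also enter the comparisons with input, so the pull-down calls are the same measurements seen from another side.

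Members have short transcripts, and over all genes the log2 fold change varied with transcript length; whether length sets the fold change was not tested. Length was taken from the protein-coding transcript with the longest coding sequence in GENCODE M21. Its median was 1302 bases over the 76, from 418 for Mrpl52 to 7300 for Mrpl17. Over all genes with a length in Cre- it was 3062. In Cre- the shorter 38 members had a median log2 fold change of -0.43 and all genes in their length range one of -0.47, and the longer 38 one of -0.01 against -0.02. Both medians of the members in Cre- were close to those of genes in their length range. In Cre+ the shorter 24 had a median of -1.18, against -1.03 for all genes in that range, whereas the longer 24 had one of -1.21, against 0.06. Spearman's rho of length and log2 fold change was 0.45 over 76 members in Cre- (0.35 over all genes) and -0.08 over 48 members in Cre+ (0.53 over all genes), given as a description across genes that share libraries. Of the longer 24 in Cre+, 21 were below 0 and 13 below -1, as were 22 and 13 of the shorter 24. The 3 longest members were not among the lowest: Mrpl17 (7300 bases) was at -0.57, Mrps25 (6073 bases) at 0.93 and Mrpl19 (5000 bases) at -0.40. Next in length came Mrps5 (4481 bases) at -1.92 and Mrpl48 (4285 bases) at -2.00, and none of these 5 was called in Cre+.

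**Figure D4:**
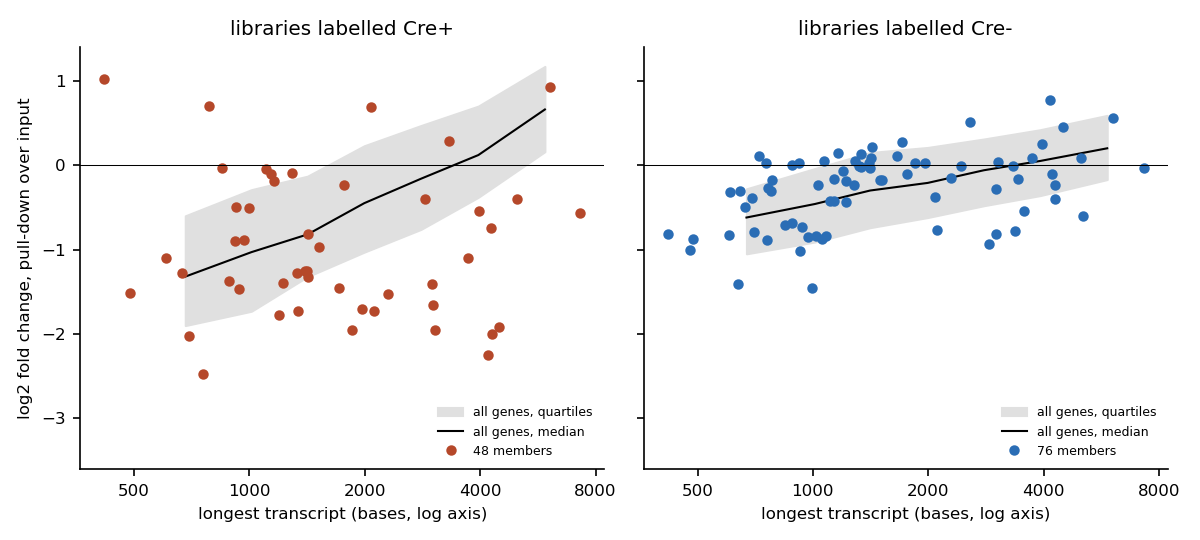
Log2 fold change of pull-down over input against transcript length (bases, log axis) for each member (coloured points), in Cre+ (left) and Cre- (right). The median (line) and quartiles (grey) are of all genes in length bins. The axis named longest transcript shows the length of the transcript with the longest coding sequence. In Cre- the members lie about the line (rho 0.45), and in Cre+ the longer 24 members have a median of -1.21, against 0.06 for all genes of their length range.

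Other genes of mitochondrial translation were taken from lists and not from their values, and their calls in Cre- stand against 11.1% of all genes lower and 13% higher. Of 6 further mitoribosome subunits, 5 were tested in Cre+, with 0 called and a median of -1.10, and 6 in Cre-, with 2 lower and a median of -0.09. Aurkaip1, a small subunit protein, fell in Cre-, with 68.0, 45.2 and 35.9 normalised CPM in the inputs and 26.1, 23.6 and 28.8 in the pull-downs (-0.93 ± 0.26, adjusted p = 0.0293). Chchd1, also of the small subunit, was the other (-1.07 ± 0.41, adjusted p = 0.0954). With each Cre- library left out in turn, the call of Aurkaip1 was lost without the first input or the second pull-down, and that of Chchd1 in 5 of 6 cases, all but that of the second input. Of 11 translation factors, 7 were tested in Cre+ with 0 called and 10 in Cre- with 1 called, with medians of 0.27 and 0.13. That one was Gfm1, the mitochondrial elongation factor G, which rose in Cre-, from 66.7, 50.8 and 49.96 in the inputs to 108, 92.1 and 82.6 in the pull-downs (0.76 ± 0.20, adjusted p = 0.0194), a call kept with each library left out. Of 20 mitochondrial aminoacyl-tRNA synthetases and amidotransferase subunits, 7 and 17 were tested, with medians of 0.18 in Cre+ and 0.14 in Cre-, and Gatc fell in Cre- (-0.83 ± 0.23, adjusted p = 0.0267; 0.113 without the first input). Of 20 assembly factors, 10 and 19 were tested, with medians of -0.13 and -0.06, and Mpv17l2 fell in Cre- (-0.88 ± 0.29, adjusted p = 0.0560), a call lost without any one of the inputs or the third pull-down. Of 6 genes of mitochondrial transcription and message stability, 3 were tested in Cre+ and 5 in Cre-, of which 0 were called in either genotype by edgeR's quasi-likelihood test and 0 had an unadjusted p below 0.05.

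Other protein families give the scale. Complex I joins products of the nuclear genome with those made by mitochondrial ribosomes. Its list was taken by symbol (Nduf, then a, b, c, s or v and a digit), so not every protein need be a subunit. The median log2 fold change was -1.78 over 32 genes in Cre+ (3 lower, where 2.32% of all genes were, and 0 higher). The 3 were Ndufa4, Ndufa9 and Ndufb11. In Cre- the median was 0.07 over 35 genes (0 lower, and 3 higher, where 13% of all genes were). Cytosolic ribosomal proteins, the partners of the tagged Rpl22, had a median of -1.49 over 53 genes in Cre+ (5 lower) and of -0.99 over 73 genes in Cre- (36 lower, where 11.1% of all genes were). The members' medians beside these were -1.18 in Cre+ and -0.19 in Cre-, and no test was made between these lists. The direct test of the genotype difference called lower 6 genes of the complex I list, 0 cytosolic ribosomal proteins and 1 of the 48 members, Mrpl27. Among all genes 2.22% were called lower.

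**Figure D5:**
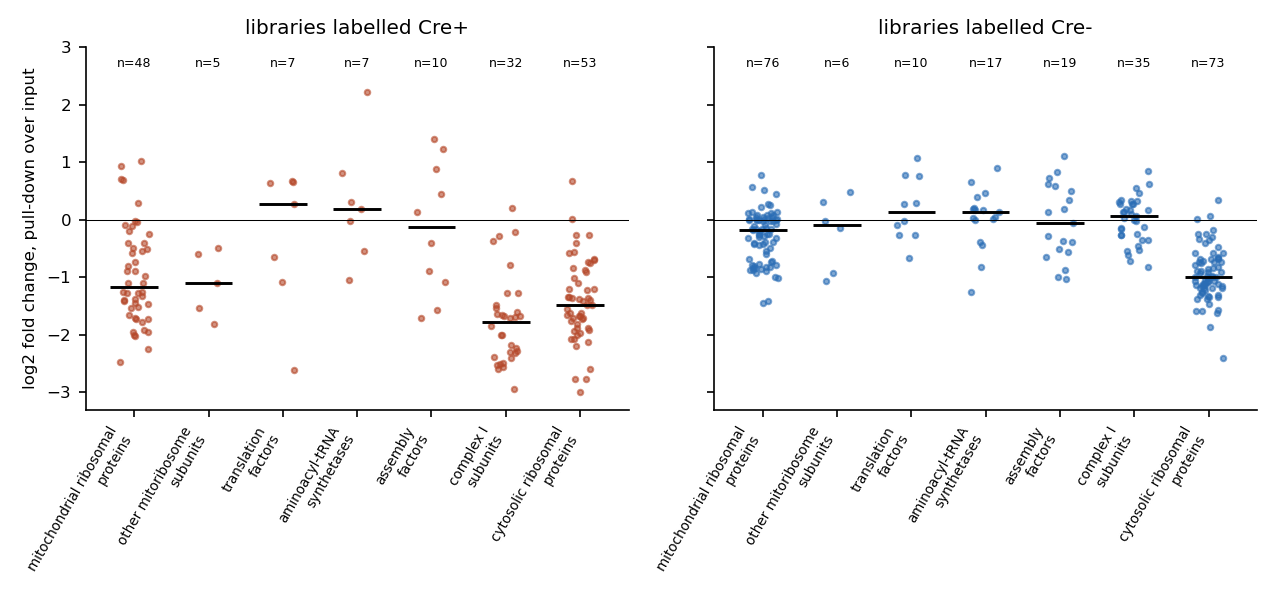
Log2 fold change of pull-down over input for each gene of 7 lists in the libraries labelled Cre+ (left) and Cre- (right), with a line at the list's median and the number of genes tested. The members' median is -1.18 in Cre+ and -0.19 in Cre-, that of complex I is -1.78 and 0.07, and that of cytosolic ribosomal proteins is -1.49 and -0.99.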

How the data were processed

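RNA-seq reads were aligned by the authors with STAR to mm10 and counted with HTSeq on refSeq refFlat genes from uniquely mapped reads, and the deposited tables, 1 per genotype, hold these counts per library, not normalized. The authors also deposited the mean FPKM over the 6 libraries of a table, used here as a filter (mean above 1) and as a level per length. The authors' own fold changes and p-values from edgeR were not used, nor were 18 further columns per sample. Pull-down columns of the Cre+ table are numbered, but their names resemble titles of Cre- samples, so they were matched to the group and not to single samples, and their numbers here only tell libraries apart. Since reads had to map uniquely, reads shared with the 6 RefSeq pseudogenes of these names could be lost.

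Pull-down was tested against input in each genotype with edgeR 4.0.16 in R 4.3.3 (TMM, glmQLFit and glmQLFTest on the counts, 3 against 3 libraries), with Benjamini-Hochberg adjustment over all genes tested and calls at FDR below 0.1. Differences between genotypes used 1 fit of 12 libraries over the genes past the filter in both tables. Normalised CPM are counts per 1000000 of the TMM-scaled total, and for the per-library medians 0.5 was added before the log. SE is the log2 fold change over the root of its F statistic. Lengths and exon overlaps came from GENCODE M21 and promoters from RefSeq, both on the build of mm10, and Python scripts with matplotlib 3.10.9 drew the plots. Named are, in each genotype, up to 6 members called as higher and 6 as lower, by rising FDR (with none called, the 3 largest fold changes), those called for the difference, the 3 highest and lowest by mean FPKM and the Mrps18 paralogs; others stand as examples of their role. Members and lists were chosen with earlier results of these data known. Alternatives were DESeq2 1.42.0, edgeR's exact test, filters of 10 counts in 3 libraries or none, upper-quartile scaling, library size alone, all libraries in 1 fit, FDR below 0.05, a 2-fold limit, a replicate block and each library left out. The scripts were tested on simulated data. An item among the marker genes is not reported here.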

Additional observations from a re-analysis of the deposited data

Results flagged for a closer look

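Mrpl27 differed between the genotypes by the test of the difference itself, with a log2 fold change of pull-down over input that was 2.45 lower in Cre+ than in Cre- (-2.45, adjusted p = 0.0985 by edgeR's quasi-likelihood test), lower in 3 of 3 Cre+ pull-downs than in every Cre+ input. Its adjusted p over the alternatives ranged from 0.0131 to 0.236. The difference was not tested in other samples. Groups of 3 libraries were too small for a check on single outlying libraries, which needs 4 samples.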

How the results depend on the processing

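The median log2 fold change of the members was below 0 in each alternative for Cre+, Cre- and their difference. Calls of single members were less stable. For Cre+, the fit of all 12 libraries called 15 members lower and 1 higher (1169 and 1580 of all genes, against 208 and 438), DESeq2 6 and 1 (614 and 1194), edgeR's exact test 6 lower (513), scaling by library size alone 5 lower (731), and no filter or FDR below 0.05 gave 0. For Cre-, all 12 libraries in 1 fit gave 0 lower and 0 higher of 48 members (224 and 358 of all genes), library size alone 15 lower and 0 higher (2378 and 929), FDR below 0.05 left 0 higher, and the 2-fold limit left 3 lower and 0 higher. For the difference, DESeq2 called 5 lower (462 of all genes), library size alone 2 (292) and FDR below 0.05 gave 0, and between pull-downs DESeq2 called 1 higher (Mrps28). Library size alone moved the median of all genes to -0.36 in Cre+ and -0.27 in Cre-, and that of the members to -1.56 and -0.42. The causes were not tested. In the first fit all 12 libraries share 1 estimate of the spread, and the genes tested changed as well. They were 8830 there, against 8947 for Cre+ and 11526 for Cre-, so the parts of these changes cannot be told apart.

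With each library left out in turn, Cre+ calls ranged from 0 to 4 lower and 0 to 1 higher (0 to 607 and 4 to 948 of all genes) with medians from -1.29 to -0.80, and Cre- calls from 3 to 7 and 0 to 1 (819 to 1735 and 1026 to 1810) with medians from -0.29 to -0.18. The difference had 0 to 9 lower (31 to 723 of all genes) and medians from -1.18 to -0.52, the inputs medians from -0.04 to 0.48, and the pull-downs 3 to 13 lower and 0 to 3 higher (381 to 1296 and 434 to 1658). Without the first Cre+ input, whose member values were high, 36 of 48 members stayed below 0 in Cre+, where 46.3% of all genes were, and 7 of all genes were called, each higher. Mrpl52 turned from 1.02 to -1.96 without the third Cre+ pull-down and was 1.80 without the first Cre+ input. Of the members, 38 of 48 in Cre+ kept their sign in each alternative run, and 44 of 76 in Cre-, or 48 of 76 apart from scaling by library size alone, which moves all genes together.

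In Cre- the replicate block gave 5 members lower and 1 higher (1446 and 1565 of all genes); the medians were -0.19 for members and -0.05 for every gene tested. The numbers are not known to pair the samples: same-numbered input and pull-down deviated together with r = 0.0674, 0.0284 and 0.124, each sample best with its own number, as a hint from the data. In Cre+ no paired analysis was possible because the numbered pull-down columns could not be matched to single samples (their names resemble titles of Cre- samples).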
